A study of Mus musculus with 10 samples.

Results

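Slc25a4, Maoa, Gclm and Bckdk are 4 genes of mitochondrial, amine, redox and amino acid metabolism, followed here in denervated tibialis anterior (TA) muscle up to day 14. They were chosen by symbol, with earlier results of these data known. The choice was made from the 89 genes to which the platform annotation gives a single symbol. The array held 2300 features (89 genes and 2211 features without a single symbol). All 4 were found, each as 1 probe spotted 4 times. The mice were CD1, 3 months old. On each of 10 spotted 2-colour arrays, denervated TA muscle was hybridised against the contralateral TA, at time 0 or 1, 3, 7 or 14 days after denervation. Each of the 5 time points had 2 arrays of opposite labelling, called the first and the reverse labelling below. The control was the muscle of the other side and not that of an animal left untouched, and the labels do not state whether both muscles came from the same mouse. Sex, the way the muscle was denervated, and how many animals each array covered are not given in the labels, nor is it stated whether both arrays of a time point shared extracts. SDs and p-values therefore reflect how far arrays differ from each other, and that spread may be purely technical. Every value is a log2 ratio of denervated over contralateral muscle, in which 0 is no difference and a positive value is more RNA in denervated muscle. A ratio holds no level, so neither the tissue nor the abundance of a gene could be checked from these values.

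TA is a fast-twitch muscle of the lower hindlimb, and loss of its nerve leads to atrophy. In muscle, mitochondria supply ATP, take up branched-chain amino acids for oxidation, and release hydrogen peroxide, which glutathione helps to remove. Slc25a4 encodes the heart and muscle form of the ADP/ATP carrier, which exchanges ATP made in the mitochondrial matrix for cytosolic ADP. Maoa encodes monoamine oxidase A, an enzyme of the outer mitochondrial membrane that deaminates amines such as noradrenaline and serotonin and yields hydrogen peroxide. Gclm encodes the modifier subunit of glutamate-cysteine ligase, which carries out the rate-limiting step of glutathione synthesis. Bckdk encodes the kinase that phosphorylates and inactivates the branched-chain ketoacid dehydrogenase complex, and so restrains the oxidation of leucine, isoleucine and valine.

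The upstream sequences of the 4 genes are shown as a description, and whether they bear on the time courses was not tested. Each is the 250 bases before the annotated start in RefSeq (mouse build GRCm38.p6). The windows were found by symbol, and all 4 symbols matched. The gene identifier annotated to the Bckdk probe is not among the mouse entries used here, so its window rests on the symbol alone. The genes themselves span chr8:46207168-46211062 (Slc25a4), chrX:16619698-16687812 (Maoa), chr3:122245487-122267215 (Gclm) and chr7:127904073-127909664 (Bckdk). The window of Slc25a4 lies at chr8:46211063-46211312, minus strand, Maoa at chrX:16619448-16619697, plus strand, Gclm at chr3:122245307-122245556, plus strand, and Bckdk at chr7:127903823-127904072, plus strand. The window of Gclm ends inside the annotated gene, since the sequence table takes its start downstream of the outermost one. Capitals mark matches, on either strand, to 5 motifs. The TATA box was searched as TATAA. The CCAAT box was searched by the letters of its name. The GC box was searched as GGGCGG. The core of the antioxidant response element was searched as TGACNNNGC. The forkhead core was searched as GTAAACA. None of the matches overlapped another in these windows.
Slc25a4: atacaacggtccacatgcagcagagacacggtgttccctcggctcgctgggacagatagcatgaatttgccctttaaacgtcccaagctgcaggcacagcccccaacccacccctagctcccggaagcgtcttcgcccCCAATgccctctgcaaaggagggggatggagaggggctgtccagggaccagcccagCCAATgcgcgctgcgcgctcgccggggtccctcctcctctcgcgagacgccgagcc
Maoa: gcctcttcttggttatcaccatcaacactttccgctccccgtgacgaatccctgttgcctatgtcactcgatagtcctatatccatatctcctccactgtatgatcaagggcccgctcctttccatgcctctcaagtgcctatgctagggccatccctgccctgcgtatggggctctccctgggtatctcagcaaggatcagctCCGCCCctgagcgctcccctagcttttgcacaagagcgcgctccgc
Gclm: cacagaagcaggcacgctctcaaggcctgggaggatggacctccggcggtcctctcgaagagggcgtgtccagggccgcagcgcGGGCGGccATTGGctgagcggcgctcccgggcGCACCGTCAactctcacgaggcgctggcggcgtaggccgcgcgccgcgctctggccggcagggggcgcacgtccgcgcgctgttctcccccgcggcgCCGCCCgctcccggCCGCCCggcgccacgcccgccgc
Bckdk: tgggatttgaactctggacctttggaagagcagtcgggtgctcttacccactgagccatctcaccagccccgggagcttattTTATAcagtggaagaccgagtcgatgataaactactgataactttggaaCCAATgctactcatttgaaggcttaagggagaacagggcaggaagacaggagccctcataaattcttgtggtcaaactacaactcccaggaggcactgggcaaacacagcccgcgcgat

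The Slc25a4 sequence held 2 CCAAT boxes, 112 and 56 bases before the start. Maoa held 1 GC box, 46 bases before it and on the opposite strand. Gclm held 3 GC boxes, on both strands, 1 CCAAT box and 1 core of the antioxidant response element. The CCAAT box and the core, the latter 134 bases before the start, were on the opposite strand. Bckdk held 1 CCAAT box at 119 bases and 1 match to the TATA box at 168 bases. The latter is on the opposite strand and farther upstream than a TATA box usually lies. CANNTG, the E-box bound by myogenic factors, occurred once each in Slc25a4, Maoa and Bckdk and was not found in Gclm; it is not in capitals. No motif was in all 4 windows, and the forkhead core was in none of them. Among 32851 RefSeq windows of the same length, 33.8% held a CCAAT box, 32.7% a GC box, 22.8% a TATA match, 10.2% the antioxidant core, 3.17% the forkhead core and 66.2% an E-box. The G and C content was 78.4% for Gclm, 64.8% for Slc25a4, 56.8% for Maoa and 50.0% for Bckdk. A match describes letters alone, and no binding was measured.

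All 4 genes had ratios of opposite sign at days 3 and 14. Slc25a4, Maoa and Gclm stood above 0 on both day 3 arrays and below 0 on both day 14 arrays, while Bckdk stood below 0 at day 3 and above 0 at day 14 (the plot of ratios by day and labelling). Their own spots behaved alike. At day 3, all 8 spots on the 2 arrays were above 0 for Slc25a4, Maoa and Gclm and all 8 were below 0 for Bckdk. At day 14 the sign was opposite for all 8 spots of each gene. All 8 spots also shared a sign at time 0 for Slc25a4 and Gclm (below 0) and at day 1 for Gclm (above 0). None of the 4 genes passed its test at those time points. Spots of a probe are copies on the same array and not replicates.

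**Figure D1:**
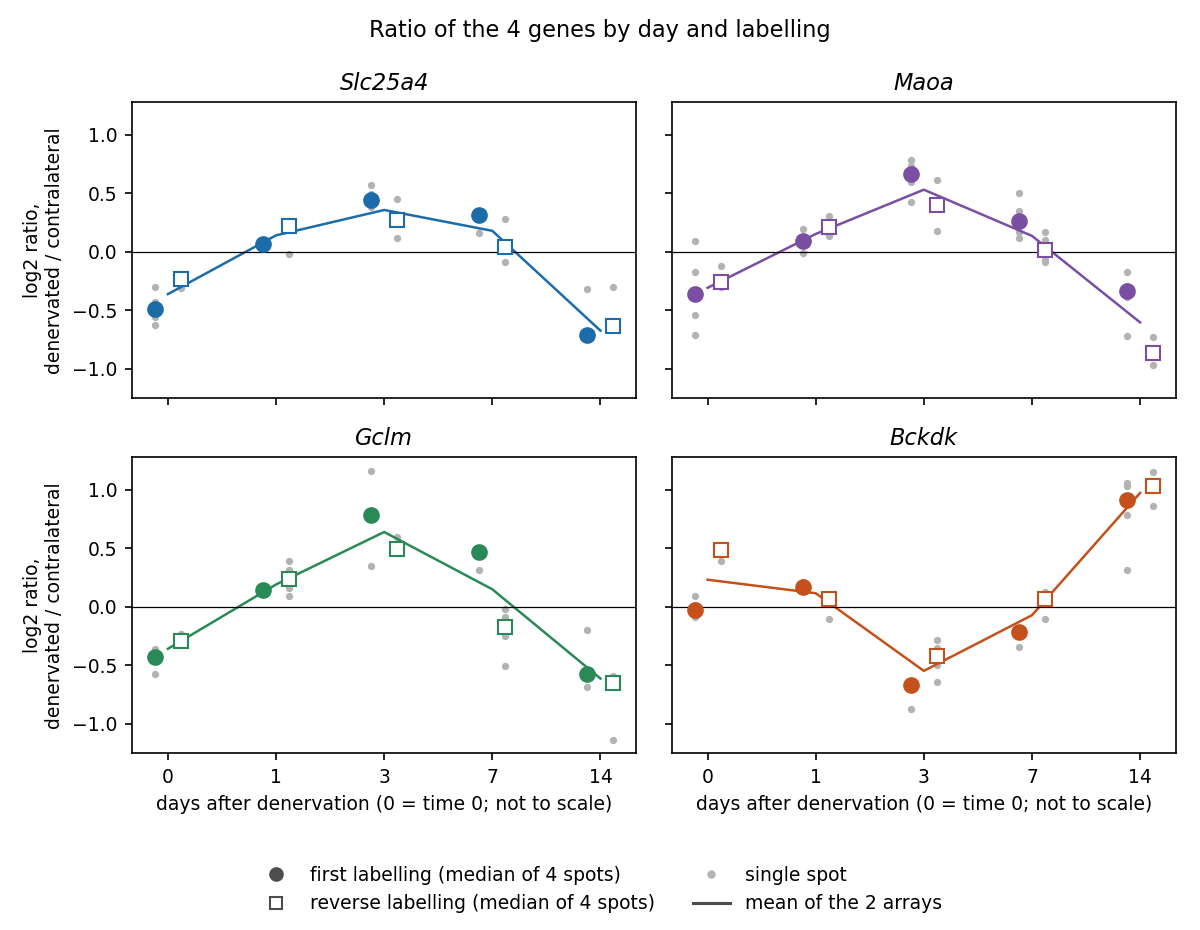
Log2 ratio of denervated over contralateral TA muscle (vertical axis) at time 0 and days 1, 3, 7 and 14 (horizontal axis, not to scale) for Slc25a4, Maoa, Gclm and Bckdk. Filled circles are the first and open squares the reverse labelling (median of 4 spots), grey dots are single spots and the line joins the means of the 2 arrays. Slc25a4, Maoa and Gclm are highest at day 3 and lowest at day 14, and Bckdk is lowest at day 3 and highest at day 14.

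Slc25a4, the ADP/ATP carrier, was lower in denervated muscle at day 14. Its log2 ratios, with the first labelling before the reverse one, were -0.49 and -0.23 (time 0), 0.064 and 0.22 (day 1), 0.44 and 0.27 (day 3), 0.31 and 0.042 (day 7), and -0.71 and -0.64 (day 14). Both arrays were thus below 0 at time 0 and day 14, and both were above it on the days between. The day means were -0.36 ± 0.18, 0.14 ± 0.11, 0.36 ± 0.12, 0.18 ± 0.19 and -0.68 ± 0.05 (SD, n = 2 arrays each). At day 14 Slc25a4 fell to 0.626 times the contralateral level, with an adjusted p of 0.0199 in limma over all 10 arrays. In bulk muscle, fewer cells of a type and less RNA per cell cannot be told apart. The day 3 mean, 1.28 times the contralateral level, did not pass (adjusted p = 0.132). The time 0 mean had an unadjusted p of 0.0246 and did not pass after adjustment (0.335). With time 0 subtracted, the day 14 ratio was -0.31 (adjusted p = 0.385) and no longer passed. Scaling the arrays to a common spread gave -0.41 at day 14 (adjusted p = 0.203), centring print blocks gave -0.59 (0.0661), and leaving out either day 14 array gave -0.64 or -0.71 (0.0805 or 0.0624), none of which passed.

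Maoa, the amine oxidase of the outer mitochondrial membrane, had log2 ratios, in the same order of labellings, of -0.36 and -0.26 (time 0), 0.088 and 0.21 (day 1), 0.66 and 0.40 (day 3), 0.26 and 0.012 (day 7), and -0.34 and -0.87 (day 14). Its 2 arrays lay farther apart at day 14 than at any other time point, though both were below 0. The means were -0.31 ± 0.07, 0.15 ± 0.09, 0.53 ± 0.19, 0.13 ± 0.17 and -0.60 ± 0.38 (SD, n = 2 each). Neither day 3, at 1.44 times the contralateral level (adjusted p = 0.0935), nor day 14, at 0.657 times (adjusted p = 0.0517), passed in limma. The day 14 value was on the other side of the limma threshold when the 4 spots were averaged (-0.63, adjusted p = 0.0453). The same held with values that recur across an array left out (-0.60, adjusted p = 0.0400). No Maoa spot held such a value, so its ratios were unchanged there and only the set of features fitted differed. Without the first labelling the day 14 ratio was -0.87. Without the reverse labelling it was -0.34.

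Gclm, of the glutathione pathway, had log2 ratios of -0.43 and -0.29 (time 0), 0.14 and 0.24 (day 1), 0.78 and 0.50 (day 3), 0.47 and -0.17 (day 7), and -0.58 and -0.65 (day 14). Day 7 was the time point at which the labellings had opposite signs, with 4 of the 8 spots above 0 and 4 below. The means were -0.36 ± 0.10, 0.19 ± 0.06, 0.64 ± 0.20, 0.15 ± 0.45 and -0.61 ± 0.05 (SD, n = 2 each). At day 3 Gclm stood at 1.56 times and at day 14 at 0.654 times the contralateral level, and neither passed in limma (adjusted p = 0.0696 and 0.0577). Fitted with only the 1285 features whose 4 spots lay within 2 log2 units on all arrays, both passed (adjusted p = 0.0152 and 0.0127). The ratios of Gclm were the same, and only the set of features differed. That is also so with recurring values left out, where day 14 passed (adjusted p = 0.0448). Day 14 did not pass with arrays scaled (-0.38, adjusted p = 0.265) or with time 0 subtracted (-0.25, adjusted p = 0.611).

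Bckdk, the inhibitory kinase of branched-chain amino acid oxidation, ran the other way. Its log2 ratios were -0.024 and 0.49 (time 0), 0.17 and 0.065 (day 1), -0.67 and -0.43 (day 3), -0.22 and 0.070 (day 7), and 0.91 and 1.03 (day 14). Day 14 stood apart from the other time points, since its lower array exceeded every array of any other day. The means were 0.23 ± 0.36, 0.12 ± 0.07, -0.55 ± 0.17, -0.07 ± 0.20 and 0.97 ± 0.09 (SD, n = 2 each). Bckdk rose to 1.96 times the contralateral level at day 14 (adjusted p = 0.0134 in limma), and stood at 0.684 times at day 3, which did not pass (adjusted p = 0.0829). With time 0 subtracted the day 14 ratio was 0.74 (adjusted p = 0.143), and with arrays scaled it was 0.60 (adjusted p = 0.232), neither of which passed. Without the reverse labelling of day 14 it was 0.91 (adjusted p = 0.0608). The platform names this probe through a sequence record and a gene identifier that are not among the mouse entries of the gene table used here. It is therefore called Bckdk by its annotated symbol alone, and which species the spotted sequence came from was not tested.

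Over all features, limma called 0% (time 0), 0.0435% (day 1), 7.96% (day 3), 11.6% (day 7) and 14.3% (day 14, with 8.74% higher and 5.57% lower). Of the 4 genes, none was called before day 14, although 1 (time 0), 0 (day 1), 4 (day 3) and 0 (day 7) of them had an unadjusted p under 0.05, and 2 were called at day 14, where all 4 had an unadjusted p under 0.05. Over all 2300 features an unadjusted p under 0.05 was found in 329 (time 0), 45 (day 1), 609 (day 3), 688 (day 7) and 769 (day 14). Of 2300 features, 183 were called at day 3, 267 at day 7 and 329 at day 14. Array medians over all features lay between -0.14 (day 14, first labelling) and 0.09 (day 7, first labelling).

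Late denervation was then set against early denervation as day 14 minus day 3, within the same fit. All 4 genes passed. Bckdk was higher at day 14 than at day 3 by 1.52 ± 0.22 log2 units (SE, 95% interval 0.99 to 2.05, adjusted p = 0.0275), a 2.87-fold difference between the ratios. The others were lower at day 14. Gclm differed by -1.25 ± 0.24 (interval -1.82 to -0.68, adjusted p = 0.0366), Maoa by -1.13 ± 0.22 (-1.67 to -0.60, adjusted p = 0.0382) and Slc25a4 by -1.03 ± 0.18 (-1.45 to -0.61, adjusted p = 0.0325). The day 14 and day 3 arrays did not overlap in any of the 4 genes. Over all features 7.52% passed, 4.30% higher and 3.22% lower at day 14. Groups that did not overlap were common, with both day 14 arrays below both day 3 arrays in 27.3% of features and above them in 28.3%. A positive sign on both day 3 arrays with a negative one on both day 14 arrays occurred in 14.0% of features, and the opposite course in 9.43%. The 4 genes were picked with results of these arrays known, so their number past the threshold says nothing of how common such genes are.

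**Figure D2:**
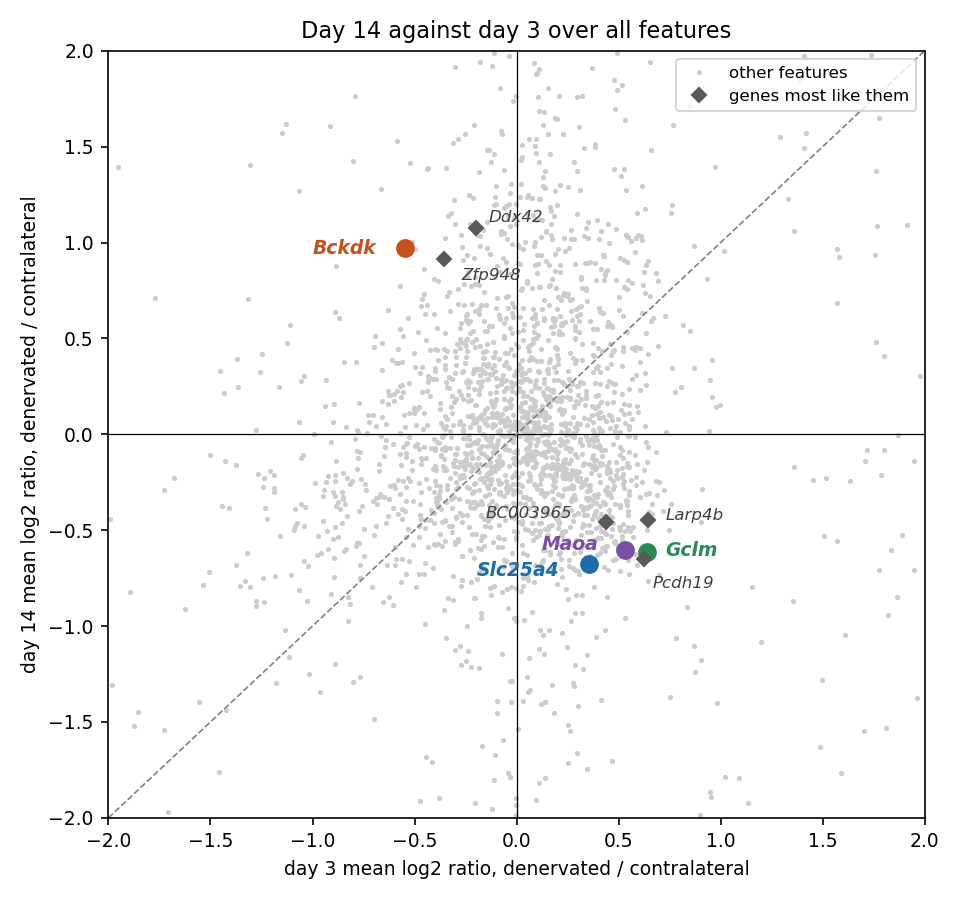
Mean log2 ratio of denervated over contralateral muscle at day 14 (vertical axis) against day 3 (horizontal axis), 1 point per feature, with the 4 genes in colour and the genes of most similar course as dark diamonds. The dashed line is equality, and 152 of 2300 features lie outside the axes. Slc25a4, Maoa and Gclm lie together at the lower right, and Bckdk at the upper left.

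The size of this difference was moderate for the array. By size, Bckdk ranked 254, Gclm 349, Maoa 412 and Slc25a4 483 of 2300 features. Among the 89 named genes Bckdk ranked 2, Gclm 12, Maoa 13 and Slc25a4 16. Of those 89 genes 13 passed (14.6%), 4 higher and 9 lower at day 14.

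No call for the difference was left without either day 3 array. Without the first labelling of day 3 it was 1.40 for Bckdk (adjusted p = 0.158), -1.11 for Gclm (0.193) and -0.95 for Slc25a4 (0.18), and Maoa had an adjusted p of 0.2. Without the reverse labelling of day 3 it was 1.64 for Bckdk (0.07), -1.40 for Gclm (0.0787), -1.27 for Maoa (0.0787) and -1.12 for Slc25a4 (0.0776). None of the 4 passed in either fit, in which the lone array of the day is assumed to vary like the others. Without the first labelling of day 14, Bckdk, Maoa and Slc25a4 passed and Gclm did not (-1.29, adjusted p = 0.0527). Without the reverse labelling of day 14, Bckdk alone passed (1.46, adjusted p = 0.0496), and Slc25a4 (-1.07), Maoa (-0.87) and Gclm (-1.22) did not. Direction was the same in all of these fits and could not be otherwise, since the day 14 and day 3 arrays did not overlap. With arrays scaled to a common spread, no gene passed (adjusted p from 0.134 to 0.158), and 4 of 2300 features did. The plot of the differences under each setting shows them side by side.

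**Figure D3:**
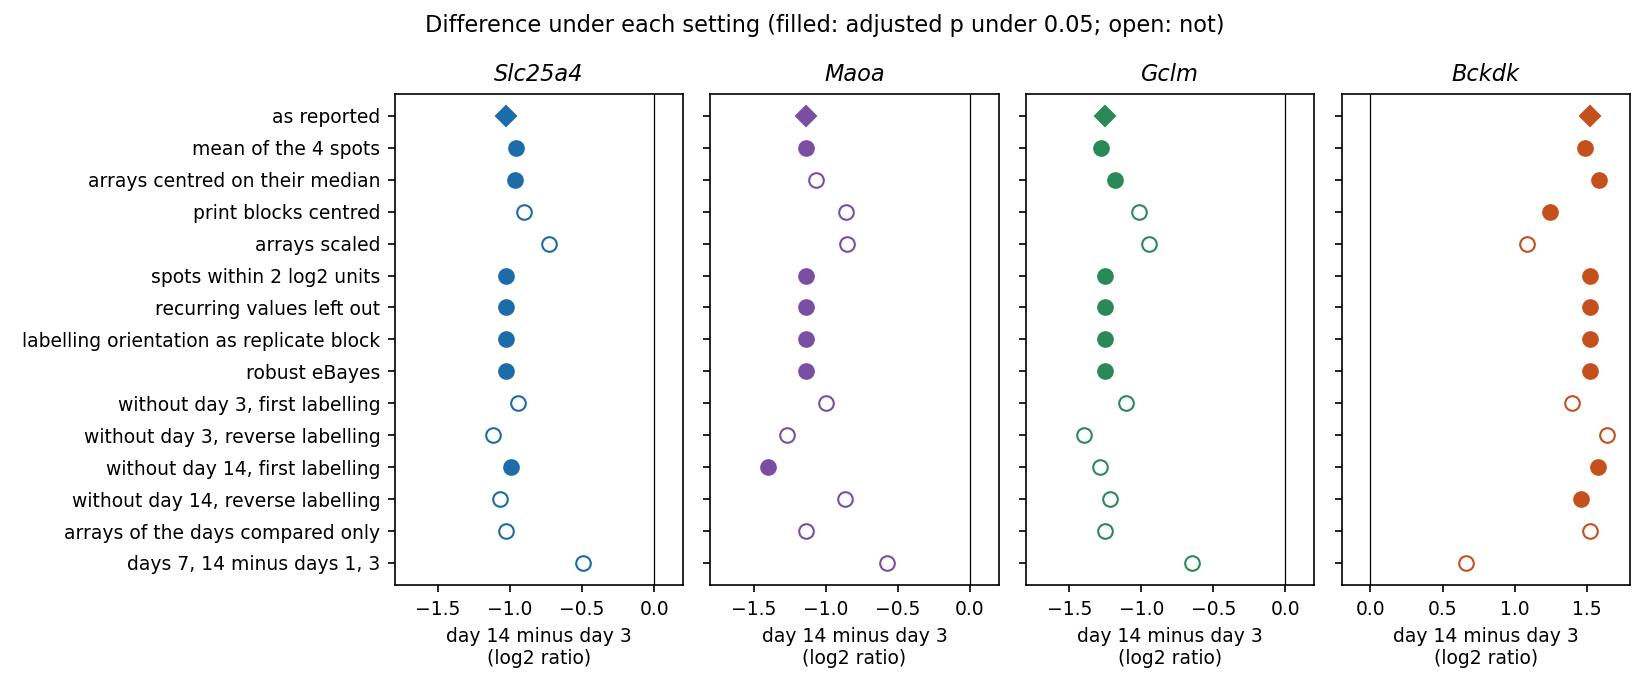
Day 14 minus day 3 of the log2 ratio (horizontal axis) for each gene under the reported fit (diamond) and 14 alternatives (circles, 1 per line), filled where the adjusted p was under 0.05. All points of Slc25a4, Maoa and Gclm lie below 0 and all of Bckdk above 0, and 28 of the 56 alternatives are filled.

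The ratios were also set beside position on the array. Each gene lies in a different one of 16 print blocks, and the median of the 144 probes in its block differed between day 14 and day 3 in the direction of the gene itself. The block medians were -0.09 at day 14 and 0.04 at day 3 for Slc25a4, -0.16 and 0.11 for Maoa, -0.10 and 0.13 for Gclm, and 0.21 and -0.07 for Bckdk. With each block centred on its median, the differences were -0.90 for Slc25a4, -0.86 for Maoa, -1.02 for Gclm and 1.24 for Bckdk. Bckdk still passed (adjusted p = 0.0280) and the others did not (0.0746, 0.0990 and 0.0746). In each gene the shift of the block was smaller than what remained after centring. The first labelling of Maoa at day 14 lay close to its block, at -0.34 against a block median of -0.25. On some arrays gene and block had opposite signs. On the first labelling of time 0, Slc25a4 stood at -0.49 with a block median of 0.23, and Maoa at -0.36 with 0.25. On the first labelling of day 14, Slc25a4 stood at -0.71 with a block median of 0.05. Whether position affected the ratios was not tested.

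**Figure D4:**
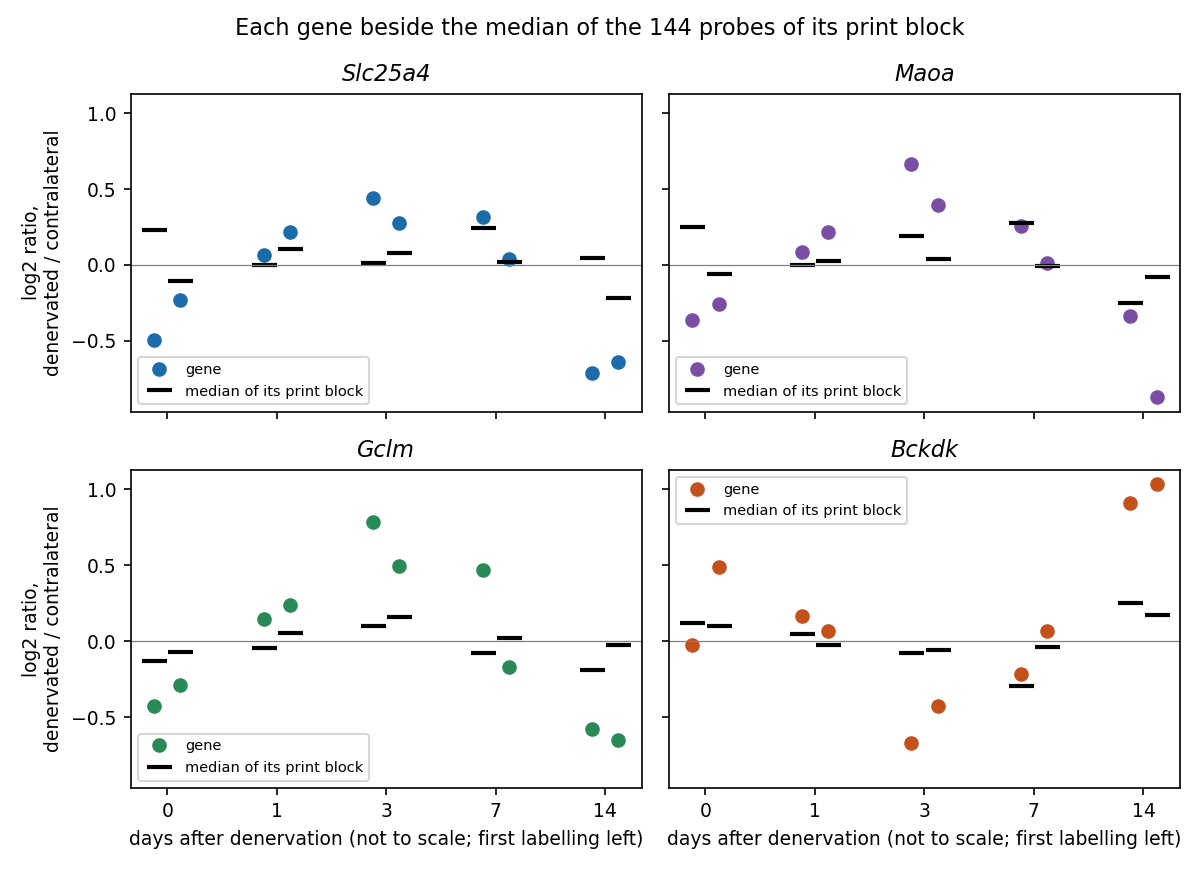
Log2 ratio of denervated over contralateral muscle (vertical axis) of each gene (points) and median of the 144 probes of its print block (bars) on each of the 10 arrays, by day (horizontal axis, not to scale, first labelling on the left). At days 3 and 14 each gene lies farther from 0 than its block median does.

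Other pairs of days were also compared. In all, 10 differences between days were computed per gene, and day 14 minus day 3 was the one that passed, for each of the 4 genes. Over all features 0.783% passed for day 14 minus day 7, 0.565% for day 7 minus day 3, 3.39% for day 14 minus day 1, 3.52% for day 7 minus day 1 and 1.04% for day 3 minus day 1. For the differences from time 0 the shares were 4.0% (day 14), 11% (day 7), 6.96% (day 3) and 0% (day 1). Day 14 minus day 7 was -0.85 for Slc25a4 and 1.05 for Bckdk (adjusted p = 0.0733 for both), -0.74 for Maoa (0.114) and -0.76 for Gclm (0.12). Day 3 minus time 0 was 0.72 for Slc25a4, 0.84 for Maoa, 1.00 for Gclm and -0.78 for Bckdk, with adjusted p from 0.0549 to 0.0761. Day 14 minus time 0 was -0.31, -0.30, -0.25 and 0.74 for the same genes, with adjusted p from 0.143 to 0.611. At time 0 the signs of the 4 means were those of day 14, and the step from time 0 to day 14 was smaller than that from day 3 to day 14 in each gene.

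A labelling swap counted as 1 replicate leaves 1 value per time point. On these time-point means, limma gave a mean over days 1 to 14 of 0.053 ± 0.21 for Maoa, 0.091 ± 0.23 for Gclm and 0.12 ± 0.27 for Bckdk (SE, adjusted p from 0.847 to 0.91). The mean of Slc25a4 was nearest to 0, with an adjusted p of 1. A line fitted through the 5 time points against log2(day + 1) had a slope of -0.055 for Slc25a4, -0.057 for Maoa, -0.051 for Gclm and 0.13 for Bckdk (adjusted p from 0.851 to 0.964). Neither test called any of the 2300 features, of which 193 and 224 had an unadjusted p under 0.05, none of them among these 4 genes. The ratios of these 4 genes changed sign within days 1 to 14, and neither test addresses such a course. Ratios of opposite sign offset each other in a mean, and a straight line cannot follow a course that turns. The lack of calls for these genes therefore does not bear on their change of sign. The difference between 2 single time points cannot be tested with 1 value per time point.

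Slc25a4, Maoa and Gclm had similar courses on the 10 arrays and Bckdk the opposite one, described by Pearson's r without a test, since the arrays form 5 pairs and all ratios share arrays and labellings. Slc25a4 and Gclm had an r of 0.957, Maoa and Gclm 0.952, and Slc25a4 and Maoa 0.926. Bckdk had r values of -0.891 with Maoa, -0.884 with Gclm and -0.860 with Slc25a4. Such likeness was shared with many other features. An r of at least 0.9 was reached with Slc25a4 by 94 of 2299 features (4.09%), with Gclm by 79 (3.44%), with Maoa by 56 (2.44%) and with Bckdk by 33 (1.44%). With print blocks centred these numbers were 36, 32, 39 and 16.

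Among the other named genes, those most like the 4 were Pcdh19 for Slc25a4 (r = 0.978), Larp4b for Maoa (0.946) and for Gclm (0.970), BC003965 for Gclm (0.965), and Zfp948 (0.973) and Ddx42 (0.942) for Bckdk. Gclm was itself the second nearest to Slc25a4 and the nearest to Maoa. The genes were picked by r over the same 10 arrays, those of days 3 and 14 included. Their differences between these days therefore follow largely from the choice and are no separate evidence. Pcdh19, a protocadherin of cell adhesion, stood at -0.69 and -0.61 at day 14 and at 0.81 and 0.44 at day 3, a difference of -1.27 (adjusted p = 0.0300). Larp4b, a La-related RNA-binding protein, stood at -0.39 and -0.51 at day 14 and at 0.75 and 0.55 at day 3 (difference -1.10, adjusted p = 0.0363). BC003965 stood at -0.42 and -0.50 against 0.39 and 0.48 (difference -0.90), and did not pass (adjusted p = 0.0575). On the side of Bckdk, the zinc-finger gene Zfp948 stood at 0.87 and 0.96 at day 14 and at -0.41 and -0.30 at day 3 (difference 1.27, adjusted p = 0.0231). Ddx42, an RNA helicase, stood at 1.08 and 1.07 against -0.35 and -0.04 (difference 1.27, adjusted p = 0.0333).

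Few other genes of these pathways carry a name on this array. Of 138 genes listed for mitochondrial energy, amino acid, monoamine and redox metabolism, 1 was measured under its name, Mthfsl, annotated as a relative of the folate enzyme Mthfs. Gclc, Bckdha, Bckdhb, Maob and Slc25a5, the direct partners or relatives of the 4 genes, were not analysed here. From the 89 named genes, 4 more were taken for their function, after the annotation was known. They are Lipt1, a lipoyltransferase of mitochondrial 2-oxoacid dehydrogenases, Ttc19, an assembly factor of respiratory complex III, Slc7a1, a transporter of cationic amino acids, and Prxl2c, of the peroxiredoxin-like family. With Mthfsl these are 5 genes. None of them passed in limma at day 3, day 7, day 14 or for day 14 minus day 3, where 0, 2, 1 and 1 of the 5 had an unadjusted p under 0.05. Of 2300 features, 609, 688, 769 and 608 had one in the same comparisons, so these counts do not set the 5 genes apart.

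Of these, Slc7a1 had the unadjusted p under 0.05 for the difference. It stood at -0.58 and -0.27 at day 14 and at 0.05 and 0.36 at day 3, a difference of -0.63 (adjusted p = 0.0844), with -0.34 and -0.25 at time 0. Lipt1 stood at -0.08 and -0.34 at day 14 and at 0.94 and 0.11 at day 3 (difference -0.73, adjusted p = 0.234). Ttc19 and Mthfsl split by array. Ttc19 gave -0.41 on the first and 2.60 on the reverse labelling of day 14, and Mthfsl -0.58 and 2.78, with differences from day 3 of 1.10 and 1.33 (adjusted p = 0.448 and 0.482). Prxl2c gave -0.96 and 0.44 at day 14 and 0.17 and -0.17 at day 3 (adjusted p = 0.788). The arrays of Ttc19, Mthfsl and Prxl2c at day 14 thus had opposite signs.

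For the tissue, Scn4b of 18 denervation-responsive genes and Trdn and Neb of 19 fast myofibre markers were measured under their names. None of 39 markers of slow fibres, leukocytes, fibroblasts, endothelium, Schwann cells, adipocytes and erythroid cells was, so the part of other cells in these ratios was not tested. Scn4b, a sodium channel subunit, was lower in denervated muscle at day 3 (-1.18, adjusted p = 0.0024), day 7 (-1.09, 0.00294) and day 14 (-1.30, 0.0011), without the turn seen in the 4 genes, and its day 14 minus day 3 was -0.12 (adjusted p = 0.637). Neb, the thin-filament protein nebulin, was higher in denervated muscle at day 14 (1.25, adjusted p = 0.0177 in limma). It stood at -0.23 at day 3, and its difference of 1.48 passed (adjusted p = 0.0435). Its day 3 arrays had opposite signs (-0.685 and 0.221), and it already stood at 0.67 and 0.575 at time 0. Trdn, the triadin of the junctional sarcoplasmic reticulum, stood at -0.09 at day 14 and -0.12 at day 3 and did not pass at either day, but it was lower in denervated muscle at day 7, with -0.56 and -0.74 on its arrays (mean -0.65, adjusted p = 0.016).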

How the data were processed

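Total RNA (8 µg, per the labels) of each muscle was copied into labelled cDNA from an oligo-dT primer, and 2 arrays with exchanged dyes were hybridised per time point. QuantArray read the images and SNOMAD normalized them (global and lowess), per the labels. The values the authors deposited are log2 ratios, and their labels define a positive number as more RNA in denervated muscle for every array, so signs were kept. The labels do not state how background was handled, how spots were filtered or which software versions were used. The ratios come without intensities, so signal over background is unknown and the number of arrays limits the precision. Lowess makes a ratio relative to the bulk of its array.

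The 9216 spots were read as 2304 probes of 4 spots, from the layout of the 97 named probes. Spots of a probe were combined by their median and several probes of 1 gene by their mean. Symbols were updated through a RefSeq gene table (GRCm38.p6). Of the probes 93 had 1 symbol, 4 several and 2207 none. Each array held 1 value shared by 91 to 745 spots, and no spot of these 4 genes had it.

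Tests were made with limma (version 3.58.1, R 4.3.3), two-sided, Benjamini-Hochberg adjusted over 2300 features, threshold 0.05. The fit used all 10 arrays as separate samples with 1 coefficient per time point and 5 residual degrees of freedom. The mean and the slope were fitted on time-point means. The labels give no replicate numbers, and the labelling orientation served as a block in an alternative. The 4 genes are always named, with the 2 named genes of highest r to each and the measured genes of fixed lists. The genes and lists were chosen with earlier results of these data known.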

Additional observations from a re-analysis of the deposited data

Results flagged for a closer look

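The ratio of denervated over contralateral muscle differed between day 14 and day 3, by the test of the difference itself, in all 4 genes. Day 14 minus day 3 was 1.52 for Bckdk, -1.03 for Slc25a4, -1.13 for Maoa and -1.25 for Gclm on the log2 scale (limma, adjusted p from 0.0275 to 0.0382). Of the 10 differences between days per gene, 40 in all, these 4 passed. Over all features 7.52% passed for day 14 minus day 3. The 4 genes were picked with results of these arrays known, so their number says nothing of how common such genes are.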

How the results depend on the processing

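Day 14 minus day 3 kept its direction in all 56 alternatives of the 4 genes and passed in 28. In many of them the direction could not change. Spots within 2 log2 units, recurring values left out, robust eBayes, the labelling block and compared days only left the estimates unchanged. With 1 array left out the sign was fixed too, since the day 14 and day 3 arrays did not overlap. All 4 passed with the mean of the 4 spots, spots within 2 log2 units, recurring values left out, robust eBayes and the labelling orientation as a replicate block, which gave 1.52, -1.03, -1.13 and -1.25 for Bckdk, Slc25a4, Maoa and Gclm (adjusted p from 0.0261 to 0.0486) and changed no call of these genes. None passed with the arrays of the days compared only (1.52, -1.03, -1.13 and -1.25, adjusted p from 0.205 to 0.214, 2 residual degrees of freedom), with arrays scaled (1.09, -0.73, -0.85 and -0.94), or as days 7 and 14 minus days 1 and 3 (0.67, -0.50, -0.58 and -0.65). With print blocks centred Slc25a4 (-0.90), Maoa (-0.86) and Gclm (-1.02) did not pass, and with arrays centred on their median Maoa did not (-1.07, adjusted p = 0.0593). With 1 array left out the values ran from 1.40 to 1.64 for Bckdk, -1.12 to -0.95 for Slc25a4, -1.40 to -0.87 for Maoa and -1.40 to -1.11 for Gclm. The cause of these changes was not tested.

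At day 14, Slc25a4 did not pass with print blocks centred (-0.59), arrays scaled (-0.41), the 2 arrays of the day only (-0.68) or time 0 subtracted (-0.31), and ran from -0.71 to -0.64 with either array left out. Bckdk did not pass with arrays scaled (0.60), the 2 arrays only (0.97) or time 0 subtracted (0.74), and ran from 0.91 to 1.03. Maoa passed with the mean of the spots (-0.63), spots within 2 log2 units (-0.60) and recurring values left out (-0.60), and ran from -0.87 to -0.34 with either array left out. Gclm passed with spots within 2 log2 units and with recurring values left out (-0.61 in both). With arrays scaled, Gclm was -0.38 (adjusted p = 0.265) and Maoa -0.38 (0.263) at day 14, and neither passed. At day 3, Bckdk (-0.55), Maoa (0.53) and Gclm (0.64) passed with spots within 2 log2 units. At day 7, Bckdk turned to 0.10 with print blocks centred and ran from -0.22 to 0.070 with either array left out, and Gclm ran from -0.17 to 0.47. The mean of Slc25a4 over days 1 to 14 turned to 0.018 with the mean of the spots.

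The fit with spots within 2 log2 units held 1285 features and the one with recurring values left out 2058, against 2300 in the others, so their counts have other denominators. At day 3, 183 features were called, against 94 with arrays scaled, 407 with spots within 2 log2 units, 0 with the arrays of the day only and 36 to 53 with either array left out. At day 7 the numbers were 267, 35, 441, 0 and 85 to 168, and at day 14 they were 329, 14 with arrays scaled, 0 with the arrays of the day only and 92 with time 0 subtracted. For day 14 minus day 3 they were 173, against 4 with arrays scaled, 429 with spots within 2 log2 units, 281 with recurring values left out, 0 with the arrays of the days only and 20 to 275 with 1 array left out. In the fits that called 0 features, limma gave 505, 371, 310 and 455 features with an unadjusted p under 0.05 at day 3, at day 7, at day 14, and for day 14 minus day 3. Signal over background is unknown, so a dim probe cannot be told from a bright one.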
